A study of Homo sapiens with 3 samples.

Results

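The pancreatic lineage transcription factors PDX1, SOX9, HNF4A, FOXA1, FOXA2, GATA4, GATA6 and ONECUT1 were examined in the human pancreatic cancer line PANC-1. They were chosen by name for their roles in the pancreas, with earlier results of these data known. These 8 genes were read by 10 of the 34041 probes with a value on every array, against 19699 named genes in all, with 3 probes for GATA4 and 1 for each other gene. Total RNA labelled with the dye Cy3 was hybridised to 3 Agilent 1-colour arrays, 1 per group. The groups were control cells, cells treated with 20 µM cantharidin and cells treated with okadaic acid (OA), each agent for 24 h. The sample label gives 20 µM for OA as well, and whether the control cells received a solvent is not given in the sources used here. Both agents inhibit protein phosphatase 2A, an enzyme that removes phosphate groups from many signalling proteins, and OA served as a reference inhibitor. All RNA came from 1 line in culture, and with 1 array per group no spread between cultures could be measured and no test was possible.

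In the embryo, FOXA1 and FOXA2 are pioneer factors that open closed chromatin in the gut tube. GATA4 and GATA6 act beside them in the endoderm that forms the pancreas. PDX1 marks the pancreatic buds and later keeps beta cells in their state. SOX9 maintains the progenitors and stays on in duct cells, ONECUT1 (also called HNF6) acts in ducts and in the step to endocrine cells, and HNF4A drives genes of liver, gut and islet. In pancreatic cancer, GATA6, HNF4A and PDX1 are known as factors of the classical state, which keeps epithelial features.

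The promoters of FOXA1 and GATA6 are shown because these were the only members called higher under OA against control. The promoter set used here held 4 members, these 2 with HNF4A and ONECUT1. The other 4 members, SOX9 and FOXA2 among them, were not in it and could not be shown. The windows are the 250 bases before the RefSeq start site in GRCh38.p14, on the minus strand at chr14:37595250-37595499 for FOXA1 and on the plus strand at chr18:22169339-22169588 for GATA6, and capitals mark matches to a searched motif:
FOXA1: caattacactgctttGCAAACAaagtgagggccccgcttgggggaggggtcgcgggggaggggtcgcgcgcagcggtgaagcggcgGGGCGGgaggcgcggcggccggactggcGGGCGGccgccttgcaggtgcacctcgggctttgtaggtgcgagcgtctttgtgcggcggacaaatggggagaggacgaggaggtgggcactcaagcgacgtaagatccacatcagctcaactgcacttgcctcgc
GATA6: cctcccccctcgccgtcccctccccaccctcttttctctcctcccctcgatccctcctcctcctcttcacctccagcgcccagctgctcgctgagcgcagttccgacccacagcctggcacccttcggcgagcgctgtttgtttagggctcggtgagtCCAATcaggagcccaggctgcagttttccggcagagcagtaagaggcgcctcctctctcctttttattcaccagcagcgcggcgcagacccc
The FOXA1 window held 2 GC boxes (GGGCGG) that start 164 and 136 bases before the start site and 1 forkhead core (TGTTTNC, here on the other strand) 235 bases before it. The GATA6 window held 1 CCAAT box, 92 bases before the start site, and no GC box. Across 35116 promoter windows of the same length, 42.6% held a GC box, 32% a CCAAT box and 15.5% a forkhead core. Neither window held a TATA box (TATAAA, in 10.7% of windows), an AP-1 site (TGANTCA, in 6.57%), a GATA core (AGATAA, in 9.17%) or a SOX core (AACAAT, in 8.98%), with both strands searched throughout. The GC content was 67.2% for FOXA1 and 64.4% for GATA6, against a median of 58% over all windows. So the 2 windows shared no searched motif, and a match describes letters only.

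Values below are processed intensities, background-subtracted by the scanner software, in arbitrary units with the software's modelled spot error as SD. Differences are log2 values after scaling each array to its own 75th percentile, which stood at 784 for control, 713 for cantharidin and 936 for OA. A gene entered a comparison when its brightest probe stood well above background on either array, and a difference of 1.5-fold or more was called. Between 67.8% and 73.7% of all probes were well above background per array. The SD of a log2 difference came from the software's modelled spot error, not from measured scatter, and leaves out variation between cultures. It was 0.20 for bright probes such as SOX9 and FOXA2 under cantharidin. Replicate spots above an intensity of 1000 had a median log2 SD of 0.05 to 0.07 per array. The SD thus says nothing about repeat treatments. Less RNA per cell and fewer cells with the RNA cannot be told apart.

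Under cantharidin, SOX9 and FOXA2 fell and GATA6 rose, while the probes of GATA4 disagreed. Under OA, SOX9 fell less, FOXA2 did not pass 1.5-fold, and FOXA1 and GATA6 rose. Neither PDX1 nor HNF4A stood well above background in any of the 3 groups. The 8 genes thus did not move as a block under either agent.

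**Figure D1:**
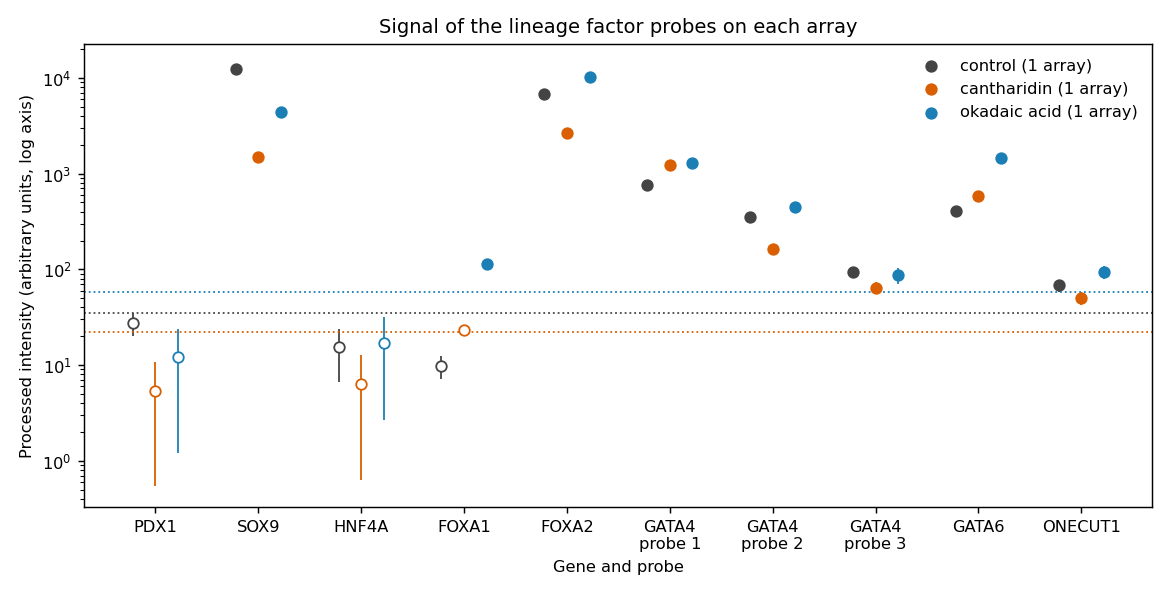
Processed intensity (arbitrary units, log axis) of each probe of the 8 factors on the control, cantharidin and OA arrays, with the modelled spot error as bars, lower bars being cut at 90% of the value. Filled points are well above background, open points are not, and dotted lines give the lowest intensity well above background on each array (35.0, 21.9 and 58.0). SOX9 stands at 12388, 1491 and 4371, and levels are not comparable between probes.

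FOXA1 and FOXA2 are close paralogs whose probes gave different patterns. The FOXA1 intensity was 9.77 ± 2.67 in control, 23.3 ± 2.42 under cantharidin and 112 ± 5.58 under OA. It was well above background under OA only, where it was at least 2.69-fold higher than control. Against cantharidin the measured log2 difference was 1.88 with spots that carry outlier flags left out, 1.72 with them kept and 0.61 with the normexp background correction, so its size depended on the processing. Control and cantharidin were both below background, so no fold is given between them. The measured log2 difference between OA and control, 3.27, became 0.76 with normexp, which adds an offset to dim signals. The FOXA2 intensity was 6736 ± 674 in control, 2626 ± 263 under cantharidin and 10162 ± 1016 under OA, lowest under cantharidin. Cantharidin lowered FOXA2 2.33-fold, with a log2 difference of -1.22 ± 0.20. The OA array differed from control by 0.34 ± 0.20 in log2, which is under 1.5-fold. Against cantharidin, FOXA2 under OA was 2.95-fold higher (log2 1.56 ± 0.20).

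The FOXA1 probe was printed in 10 spots on each array, which shows its reading error directly. The control spots ran from 7.17 to 15.4 and 0 of 10 were well above background. The cantharidin spots ran from 18.1 to 61.5 with a median of 24.1, and of these 3 carried outlier flags. After those were left out, the remaining 7 ran from 18.9 to 30.3 and 1 was well above background. The OA spots ran from 91.9 to 137 with a median of 114, 10 of 10 were well above background, and their log2 SD was 0.18. No OA spot overlapped a spot of either other array, before scaling. These spots share 1 labelled RNA per array and are not repeats of the treatment.

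**Figure D2:**
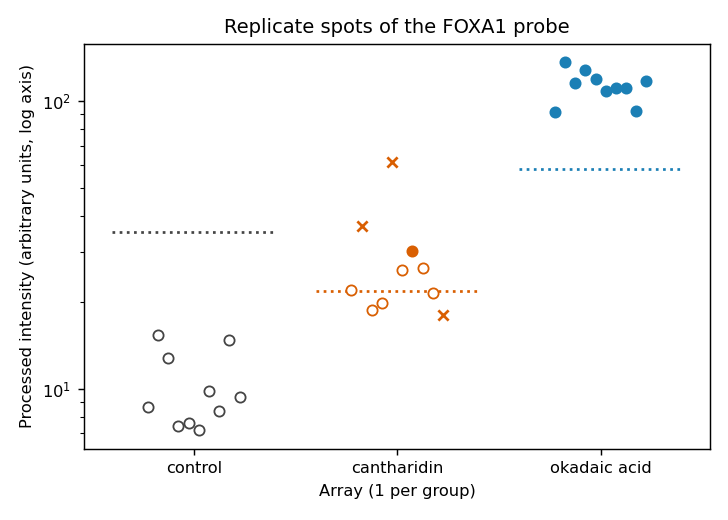
Processed intensity (arbitrary units, log axis) of the 10 replicate spots of the FOXA1 probe on each array. Filled points are well above background, open points are not, crosses are spots with outlier flags, and dotted lines give each array's lowest intensity well above background. OA spots sit between 91.9 and 137 and control spots between 7.17 and 15.4.

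GATA6 rose under both agents. Its intensity was 405 ± 41.6 in control, 591 ± 59.5 under cantharidin and 1445 ± 145 under OA, in that order from low to high. The log2 difference from control was 0.68 ± 0.21 for cantharidin (1.60-fold) and 1.58 ± 0.21 for OA (2.99-fold). OA exceeded cantharidin 1.86-fold (log2 0.90 ± 0.21). The cantharidin value lay close to the 1.5-fold line, and it was 0.51 with the normexp correction and 0.54 without scaling.

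The 3 GATA4 probes did not move together. The brightest read 766 ± 77.3 in control, 1225 ± 123 under cantharidin and 1304 ± 131 under OA, which gave log2 differences of 0.82 ± 0.21 and 0.51 ± 0.21. The next probe read 352 ± 35.9, 163 ± 17.1 and 449 ± 46.4, and its differences were -0.98 ± 0.21 for cantharidin and 0.10 for OA. The dimmest read 93.7 ± 12.8, 64.5 ± 9.42 and 86.5 ± 17.0, with differences of -0.40 ± 0.29 and -0.37 ± 0.34. So cantharidin was 1.76-fold higher than control by 1 probe, 1.97-fold lower by another, and within 1.5-fold by the last. The spot of the brightest probe on the cantharidin array had a local background of 172, against 29.5 and 38 on the control and OA arrays. Of the 43118 spots per array, 85 under cantharidin (0.197%), 17 in control and 0 under OA had a local background of 150 or more. Without such spots the next probe stood for GATA4, and the cantharidin difference was -0.96.

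SOX9 fell under both agents, by more under cantharidin. Its intensity was 12388 ± 1239 in control, 1491 ± 149 under cantharidin and 4371 ± 437 under OA. Cantharidin was 7.55-fold below control (log2 -2.92 ± 0.20) and OA 3.38-fold below (log2 -1.76 ± 0.20). OA stood 2.23-fold above cantharidin (log2 1.16 ± 0.20). The cantharidin value ranged from -3.05 to -2.81 and the OA value from -1.88 to -1.50 over all other processing settings.

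PDX1 read 27.6 ± 7.54 in control, 5.42 ± 5.42 under cantharidin and 12.0 ± 12.0 under OA, and HNF4A read 15.3 ± 8.67, 6.31 ± 6.30 and 17.0 ± 14.4. None of these was well above background, the modelled error reached the size of several of the values, and no fold is given. ONECUT1 was close to the lower limit, at 68.1 ± 10.1 in control, 50.2 ± 7.50 under cantharidin and 94.1 ± 15.6 under OA, or 1.94, 2.29 and 1.62 times the lowest intensity above background on those arrays. Its log2 differences were -0.30 ± 0.30 for cantharidin and 0.21 ± 0.32 for OA, both within 1.5-fold. OA against cantharidin was 0.51 ± 0.32, under the line as well.

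**Figure D3:**
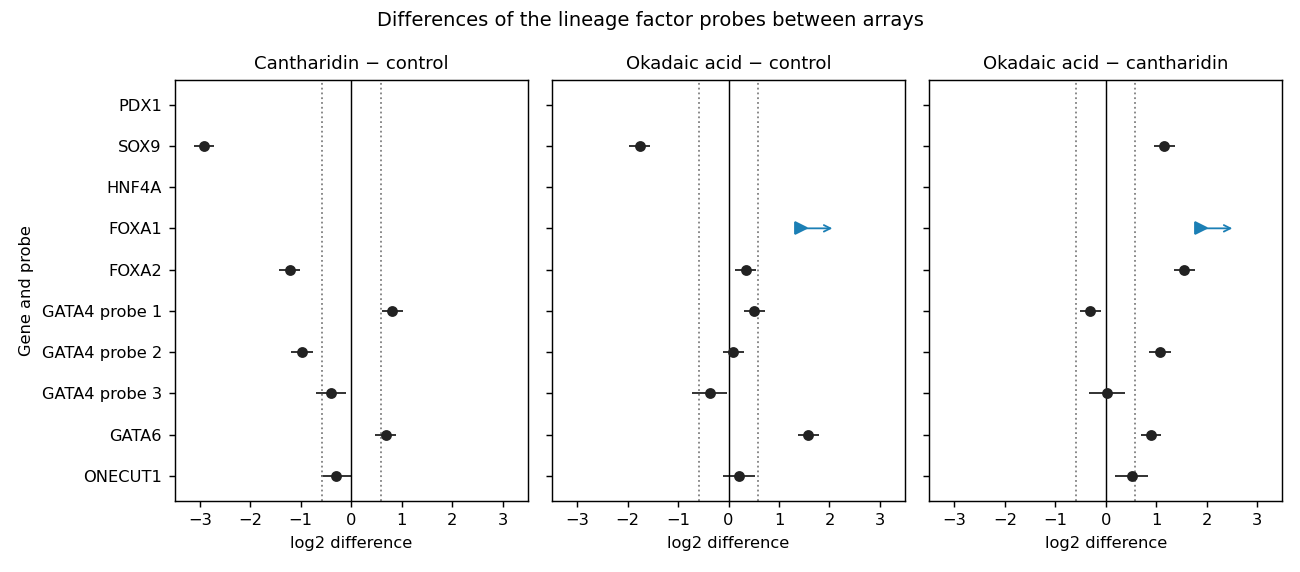
Log2 differences of each probe in the 3 comparisons, with the SD from spot error as bars. Dotted lines mark 1.5-fold, arrows start at the bound for FOXA1 computed without spots that carry outlier flags, and rows without a point are below background on both arrays. The 3 GATA4 probes spread from -0.98 to 0.82 under cantharidin.

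Of the 5 members compared between cantharidin and control, 2 were called higher (GATA4 by its brightest probe, and GATA6) and 2 lower (SOX9 and FOXA2), with a median difference of -0.30. Over all 16644 genes compared, 27.5% were called higher and 34.1% lower, with a median of -0.16. Of the 6 members compared between OA and control, 2 were higher (FOXA1 and GATA6) and 1 lower (SOX9), with a median of 0.42, against 28.1% higher, 28.8% lower and a median of 0.01 over 16166 genes. With 5 and 6 genes, the member counts were not set apart from these shares. Without scaling, 4 members were called higher under OA, FOXA2 and GATA4 being added, beside 36.6% of all genes higher and 22.4% lower. OA against cantharidin gave 4 higher of 6 (SOX9, FOXA1, FOXA2 and GATA6) and 0 lower, with a median of 1.03. The shares over 16200 genes were 29.5% higher and 22.3% lower, with a median of 0.13, and without scaling 47.1% and 13.9%. FOXA1 entered both OA comparisons through the OA array only. With detection required on all 3 arrays, OA against cantharidin gave 3 members higher and 0 lower, with a median of 0.90. The shares over all genes were then 30.3% higher and 20.0% lower. Both treated arrays were set against the same control array, and their differences from it are therefore not independent.

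The wider set of pancreatic transcription factors was read for 29 of 30 genes, and PAX4 had no matched probe. Under cantharidin, 2 of 21 compared were higher, 8 were lower and the median was -0.40, beside 27.5% higher and 34.1% lower of all genes. Under OA, 7 of 23 were higher, 2 lower and the median was 0.25, beside 28.1% and 28.8%. For OA against cantharidin, 14 of 23 were higher and 0 lower, with a median of 0.88, beside 29.5% and 22.3% of all genes. Some of these 14, ISL1 among them, were well above background under OA but not under cantharidin. Over the other processing settings, the number higher ran from 9, at 2-fold, to 20, without scaling, and 0 were lower in each. Of all genes, 16.5% were higher at 2-fold and 47.1% without scaling. Of 18 that were measured on all arrays and are reported here, 15 had a larger difference from control under OA than under cantharidin, as did 57.6% of all 14222 genes measured on every array.

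KLF5, a factor of epithelial growth, rose under both agents, with intensities of 397 in control, 616 under cantharidin and 2966 under OA (log2 0.77 and 2.65). MNX1, which acts early in the pancreatic bud, read 634, 429 and 3777, with a log2 difference of -0.42 under cantharidin and 2.32 under OA. HES1, a Notch target that holds progenitors undifferentiated, was called in opposite directions, at 271, 154 and 523 (log2 -0.68 and 0.70). The endocrine factor ISL1 was well above background under OA only, at least 2.88-fold above control. NKX2-2, NEUROD1, PAX6, INSM1, RFX6 and HNF4G, most of them endocrine factors, were below background throughout.

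**Figure D4:**
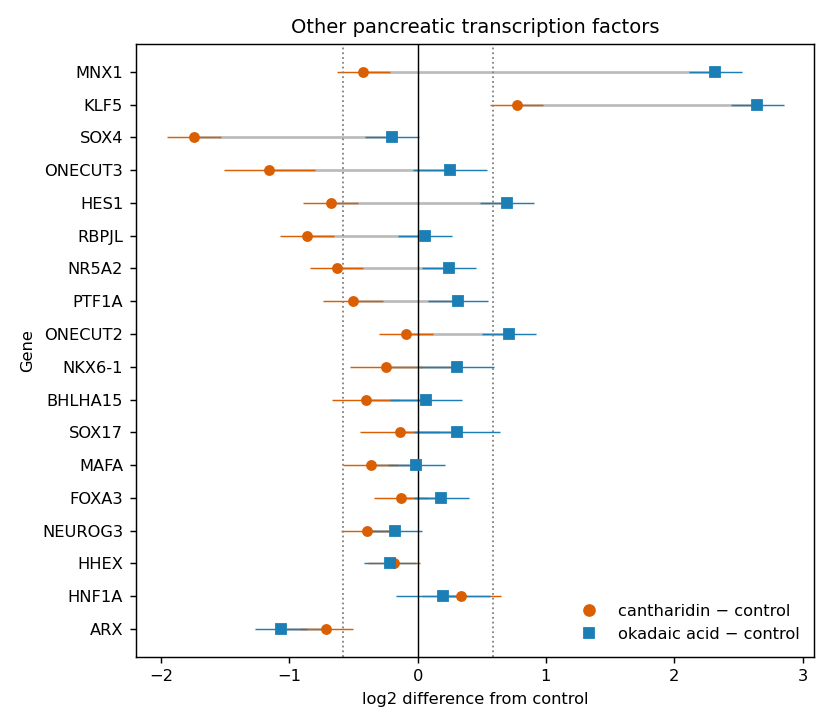
Log2 difference from control of 18 other pancreatic transcription factors well above background on every array, with circles for cantharidin, squares for OA, bars for the SD from spot error and dotted lines at 1.5-fold. In 15 of 18 the OA point lies to the right of the cantharidin point, and both share 1 control array.

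Close relatives of the 8 factors were read for 10 of 10 genes. Under cantharidin, 2 of 8 compared were higher and 2 lower (median 0.11), and under OA, 4 of 7 were higher and 1 lower (median 0.72). For these and each list below, the shares over all genes were 27.5% higher and 34.1% lower under cantharidin. Under OA they were 28.1% and 28.8%. SOX8, a relative of SOX9, moved the other way, with intensities of 1220 in control, 14179 under cantharidin and 14019 under OA (log2 3.68 and 3.27). GATA2, known from blood stem cells, read 42.4, 48.0 and 291, so it was 5.74-fold above control under OA (log2 2.52), with a cantharidin difference of 0.32. GATA3, known from T cells and urinary and breast epithelium, was well above background under cantharidin only, at 238 against 28.6 in control, at least 7.50-fold higher. GATA5 was well above background in control only, which put it at least 3.18-fold lower in cantharidin-treated cells and at least 1.57-fold lower with OA. The third forkhead factor, FOXA3, read 294, 245 and 399 and stayed within 1.5-fold in each comparison.

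Partners and cofactors, with which the factors act on DNA, were read for 20 of 20 genes. Cantharidin gave 5 higher and 6 lower of 18 (median 0.05), and OA gave 4 higher and 4 lower of 17 (median 0.30). The OA counts depended on the scaling, with 7 higher and 1 lower without it, beside 36.6% and 22.4% of all genes. The histone acetyltransferase EP300 rose under both agents, from 155 to 902 and 1058 (log2 2.68 and 2.52). Its relative CREBBP read 101, 483 and 177, with differences of 2.40 for cantharidin and 0.55 for OA. MEIS1, a homeobox partner, read 57.7, 46.7 and 289 (log2 -0.17 and 2.07). RBPJ, the DNA-binding factor of Notch signalling, read 981, 1088 and 4234 (log2 0.29 and 1.86).

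Duct and epithelial markers served to check the line, and KRT7, KRT8, KRT18 and KRT19 were well above background on every array, whereas CFTR and SLC4A4 were on none. Of 13 compared, cantharidin gave 3 higher and 7 lower (median -0.63), and OA gave 4 higher and 7 lower (median -0.74), beside 34.1% and 28.8% of all genes lower. The tight junction gene CLDN4 fell from 39896 in control to 2240 under cantharidin and 16812 under OA (log2 -4.02 and -1.50), an order of groups like that of SOX9. EPCAM, CDH1, MUC1 and ANXA4 were also called lower under both agents, and KRT18, SPP1 and CA2 higher under both. OA against cantharidin gave 5 higher and 0 lower of 12, beside 29.5% and 22.3% of all genes.

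Genes of the classical state of pancreatic cancer, in which GATA6 is a known factor, were read for 24 of 25. Cantharidin gave 4 higher and 8 lower of 21 (median -0.30), and OA 1 higher and 5 lower of 19 (median 0.01). The OA balance turned to 6 higher and 2 lower without scaling, beside 36.6% and 22.4% of all genes. Cantharidin gave 1 higher and 4 lower with normexp, beside 22.7% and 26.0% of all genes. AGR2, a secretory protein folding gene called lower under both agents, fell from 7050 to 2071 and 2333 (log2 -1.63 and -1.85). GATA6 RNA was called higher on the same arrays, as were 4 genes of this list under cantharidin and 1 under OA. A link between GATA6 and these genes was not tested. Basal-like genes were read for 21 of 22, with 7 higher and 4 lower of 17 under cantharidin (median -0.13) and 8 higher and 0 lower of 14 under OA (median 0.79). The squamous genes SCEL (92.5, 2517 and 496), S100A2 (1634, 11344 and 5717) and KRT15 (819, 3468 and 6071) rose under both agents. CTSV, a protease gene of the same list, was called in opposite directions, at 2739, 571 and 5996.

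Hepatic-type targets of HNF4A and the FOXA factors were read for 20 of 21 genes, and 12 of them, ALB and APOB included, were not well above background in control. Cantharidin gave 2 higher and 3 lower of 9, and OA 2 higher and 1 lower of 8. APOE rose under both agents, from 1925 to 7326 and 7419. Cartilage-type targets of SOX9 gave 3 higher and 2 lower of 8 under cantharidin and 3 higher and 1 lower of 6 under OA, and COL2A1, their best known member, was below background throughout. MATN1 rose (log2 1.22 and 1.54) and MATN3 fell (log2 -1.11 and -1.46) by their brightest probes while SOX9 fell.

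Markers of other cells were counted beside these results. Acinar markers gave 5 higher and 2 lower of 12 under cantharidin and 2 higher and 1 lower of 11 under OA. SPINK1, a trypsin inhibitor, rose under both (log2 3.33 and 2.80), and the trypsinogen gene PRSS2 was called under cantharidin (log2 2.97) but not under OA (log2 0.44). Endocrine markers gave 3 higher and 1 lower of 11 under cantharidin and 0 higher and 1 lower of 9 under OA, with SST, PCSK1 and SLC2A2 below background throughout. Of 14 blood, vessel and fibroblast markers, the control, cantharidin and OA arrays had 10, 11 and 10 well above background. Their summed intensities were 9257, 8570 and 26659. PECAM1 and LUM were below background throughout. The vessel gene CDH5 (411, 347 and 460) and the fibroblast gene DCN (73.1, 37.7 and 76.2) were well above background on every array. Cantharidin gave 4 higher and 3 lower of 12, and OA 3 higher and 3 lower of 11. The fibroblast genes COL1A1 (at least 21.9-fold lower) and PDGFRB (at least 11.8-fold higher) moved apart under cantharidin, and COL1A1 was at least 10.9-fold lower under OA. The monocyte markers CD14 and CD68 rose under OA (log2 1.87 and 1.86), while the pan-leukocyte gene PTPRC stood at -0.13 and the T cell gene CD3E at 0.34. The part of any of these in the values of the 8 factors was not tested.

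**Figure D5:**
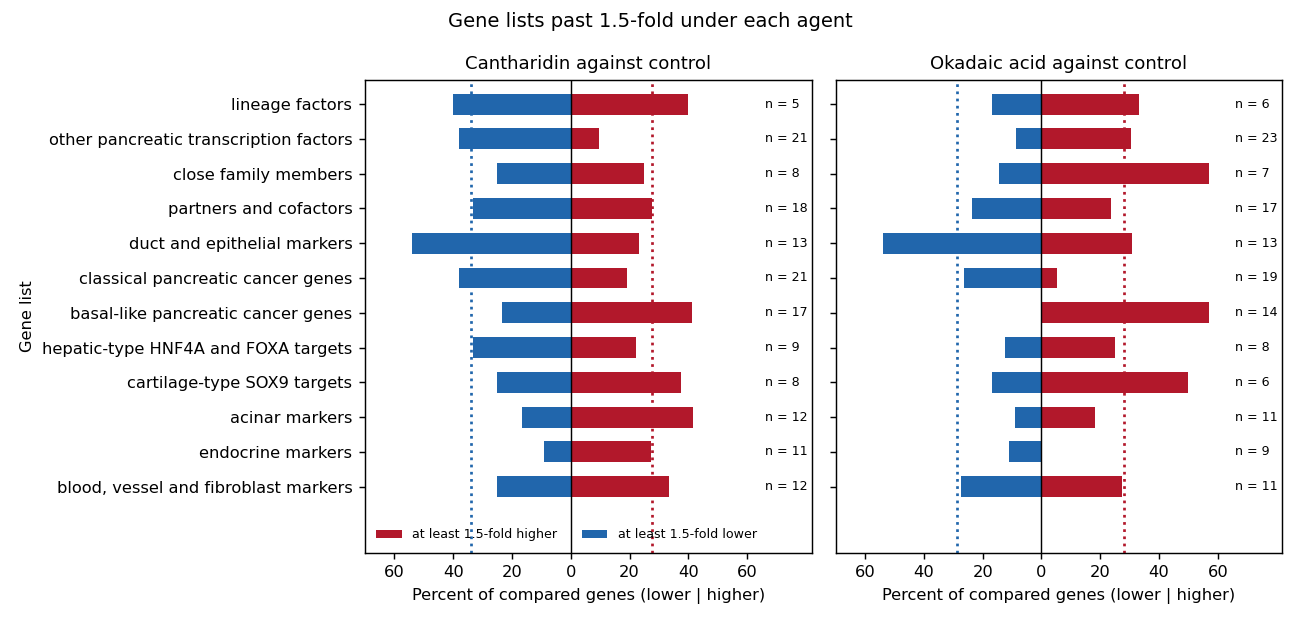
Percent of compared genes of each list called at least 1.5-fold higher (right) or lower (left) under cantharidin and OA, with n the number compared and dotted lines the shares over all genes compared (27.5% and 34.1% for cantharidin, 28.1% and 28.8% for OA). Duct and epithelial markers have 7 of 13 lower under each agent.

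The genes closest to each factor in the pair of differences from control were sought among 14222 genes well above background on all arrays, so likeness rests on 3 arrays. SOX9 lay nearest to DHODH (distance 0.02 in log2) and ATP6V0E2 (0.04), with 39 genes within 0.25. FOXA2 lay nearest to PNPT1 and TSPAN31 (both 0.06), with 91 genes within 0.25. ONECUT1 had 816 genes within that distance, with ZNF680 and SPDYE4 nearest (both 0.01). GATA6 had 93, with FRAT1 and ZNF354B nearest (both 0.05), and GATA4, by its brightest probe, had 258, with SLC35B1 and POLG nearest (both 0.02).

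Genes that flank the factors on the chromosome were read as well, an addition made after values were seen. On each side the nearest gene with a matched probe was taken, at any distance, and not all are named. LINC00261, a long noncoding RNA next to FOXA2, was well above background in control only, at 80.7 against 5.62 under cantharidin and 57.7 under OA. KCNJ2, on one side of SOX9, read 59.1, 138 and 230 (log2 1.36 and 1.71) where SOX9 fell. CTAGE1, beside GATA6, read 631, 357 and 366 (log2 -0.68 and -1.04) where GATA6 rose. MIB1, on the other side of GATA6, read 221, 151 and 42.4, and the OA value was not well above background. ATOSA, beside ONECUT1, read 183, 1100 and 1150 (log2 2.73 and 2.39), with ONECUT1 within 1.5-fold. MIPOL1, beside FOXA1, read 170, 229 and 171 (log2 0.57 and -0.25), within 1.5-fold on the OA array where FOXA1 was called higher. SSTR1, on the other side of FOXA1, was well above background in control only, at 35.9 against 5.45 and 18.1.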

How the data were processed

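Gene expression was measured on 3 Agilent 1-colour arrays, grouped by sample title. The authors deposited spot intensity values, background-subtracted per the file headers by Feature Extraction 11.0.1.1 with hg19 annotation. They also deposited normalized log2 values, used as an alternative, and how these were made is not stated. Log2 intensity was averaged over unflagged spots of each probe and scaled to the 75th percentile, with no pseudocount. The 1.5-fold threshold follows the study. A probe counted as well above background where more than 50% of its spots did. Calls used the measured signals. For a dim array, folds are bounds against the higher of its own signal and the lowest intensity above background. Accessions were matched without versions to RefSeq GRCh38.p14, which named 25705 probes, and the brightest probe stood for a gene. Members and the 11 gene lists were chosen with earlier results of these data known. Named genes were the members, up to 4 genes per list with the largest difference measured on all 3 arrays, those called in opposite directions, and the nearest patterns; other genes in the text were named after values were seen. The calling script was tested on simulated data. Versions were Python 3.11.15, pandas 2.3.3, numpy 2.4.6, matplotlib 3.10.9, limma 3.58.1 and R 4.3.3. Some genes of the lists were counted but are not reported here by name.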

Additional observations from a re-analysis of the deposited data

How the results depend on the processing

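Results were recomputed with normexp (offset 50, on median spot and background intensities), with other scaling (the median, the 75th percentile of probes detected on every array, quantiles, or none), without the filter or with detection required on all 3 arrays, from the deposited table, at 2-fold, with the median over probes and with dim signals at the floor. Leaving out spots with a local background of 150 or more and keeping spots with outlier flags were chosen after seeing the data. Against control, SOX9 stayed lower under both agents, FOXA2 lower under cantharidin and GATA6 higher under OA in every alternative that gave a value. The cantharidin difference of GATA4 turned to -0.40 with the median over probes and to -0.96 without the spots in high local background. The number of members higher under cantharidin was 1 with normexp, without scaling, with the median over probes and without those spots, and 0 at 2-fold, against 2. Of all genes, 20.1% were higher at 2-fold and between 22.7% and 27.7% in the other settings just named, against 27.5%. The number higher under OA was 4 without scaling and 1 with the filter for all arrays, which leaves FOXA1 out. Of all genes, 36.6% and 28.2% were higher in these settings. Without a filter, 3 members were higher under cantharidin, FOXA1 being added, beside 24.6% of all genes. In that setting 4 members were lower under cantharidin, PDX1 and HNF4A being added, and 2 under OA, PDX1 being added. Of all genes, 34.2% and 25.8% were lower. The added members were below background on both arrays compared. The median difference of members under cantharidin was -0.72 without a filter and -0.96 without the spots in high local background, and under OA 0.68 without scaling. For OA against cantharidin it was 0.68 with normexp and 1.42 without scaling. The FOXA1 difference between OA and control ran from 0.76 (normexp) to 3.53 (no scaling). Without scaling the median of all genes moved from 0.13 to 0.52 for OA against cantharidin, with 47.1% higher and 13.9% lower, from 0.01 to 0.26 for OA and from -0.16 to -0.30 for cantharidin. The causes were not tested. No paired analysis was possible because there was 1 array per group. Dim probes limit PDX1, HNF4A and ONECUT1: replicate spots under an intensity of 100 had a median log2 SD of 0.19 to 0.22, against 0.05 to 0.07 above 1000.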
